A study of Mus musculus with 12 samples.

Results

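This report describes 8 genes of mouse chromosome 11 in the striatum, Pttg1, Ublcp1, Slu7, Clint1, Ccnjl, Fabp6, Adra1b and Ttc1, out of 19938 genes named on the array. Pttg1 and Ublcp1 were chosen by measured values, since both were among the genes called lower in Q111 mice without mGluR5 in an earlier fit of these same 12 arrays. The other 6 were chosen as genes of the Pttg1 to Clint1 interval, which spans 2.49 Mb. Each gene was represented by 1 probe set, and no probe set with several gene symbols held one of them. The values of the 8 genes are therefore given as a description, with no p-value.

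The striatum of 90-day-old male mice was profiled on whole-transcript microarrays in 4 groups of 3 arrays. The first group carried the expanded knock-in allele on both chromosomes and lacked the receptor gene Grm5 (HdhQ111/Q111/mGluR5-/-). The second carried the same alleles with both Grm5 copies (HdhQ111/Q111/mGluR5+/+). The third combined the control knock-in allele with receptor loss (HdhQ20/Q20 and mGluR5-/-), and the fourth was the double control (HdhQ20/Q20/mGluR5+/+). All 4 groups thus carry a knock-in allele of the Huntington's disease gene on both chromosomes, and none is free of it. The labels give all groups the same mixed background of 129, CD-1, C57BL/6 and FV. They name no strain of origin for any locus, so strain alleles shared within a breeding group cannot be told apart from the genotypes. Nor do they state that each array holds another mouse, so the errors measure the spread between these samples, which may be technical.

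Pttg1 encodes securin, the inhibitor that holds separase in check until the anaphase-promoting complex marks it for destruction, after which separase cuts cohesin and sister chromatids part. Securin is best known from dividing cells and pituitary tumours, whereas the neurons of the adult striatum do not divide. Ublcp1 encodes a phosphatase with a ubiquitin-like domain that docks on the regulatory particle of the nuclear proteasome and lowers its activity. The genes between and around them have unrelated roles. Slu7 is a splicing factor of the second catalytic step, Clint1 an adaptor of clathrin-coated vesicles between the Golgi and endosomes, and Ttc1 a tetratricopeptide protein that binds heat-shock chaperones. Ccnjl is a cyclin J-like protein, Fabp6 the bile acid binding protein of the ileum, and Adra1b the alpha-1B adrenergic receptor, a receptor of noradrenaline.

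All levels are given as the deposited RMA signals on a log2 scale. Array medians lay between 7.05 and 7.16 and interquartile ranges between 2.56 and 2.95, and 3 arrays in a group limit how precise any value is. Grm5 averaged 11.07 ± 0.08 in Q111 and 11.06 ± 0.12 in Q20 mice without mGluR5, against 11.94 ± 0.08 in Q111 and 12.00 ± 0.07 in Q20 mice with it (SD, n = 3 each). All 6 arrays labelled as knockouts lay below all others. Which Grm5 probes lie in the deleted part is not given in the sources used here. Of 10 striatal markers 8 had a probe set, and their means ran from 10.97 to 12.87, with Drd2 between 11.98 and 12.15 on all arrays.

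Pttg1 (Entrez 30939, chr11:43420244-43427463 in GRCm38.p6) was low in the double mutants alone. It read 6.50, 5.99 and 6.18 in Q111 mice without mGluR5, and 7.80, 7.94 and 7.98 in Q111 mice with mGluR5. The Q20 mice read 8.02, 7.95 and 8.17 where mGluR5 was lost and 7.98, 7.93 and 7.99 where it was kept. The 3 double mutant arrays lay below the other 9, which spanned 7.80 to 8.17 and overlapped between their 3 groups. Between the Q111 groups a gap of 1.30 separated the highest array without mGluR5 from the lowest with it, and between the groups without mGluR5 the gap was 1.44. The double mutants also had the widest spread, with a mean of 6.22 ± 0.26, against 7.91 ± 0.10 in Q111 mice that kept the receptor, 8.04 ± 0.11 in Q20 mice that lacked it and 7.97 ± 0.03 in Q20 mice that kept it (SD, n = 3 each). The log2 difference between Q111 and Q20 mice was -1.82 ± 0.12 (SE, 3.53-fold) without mGluR5 and -0.06 ± 0.12 with it. Loss of mGluR5 gave -1.68 ± 0.12 (3.21-fold) in Q111 mice and 0.08 ± 0.12 in Q20 mice. The difference of these differences, the interaction, was -1.76 ± 0.17. In whole tissue, fewer cells that express a gene and less RNA per cell cannot be told apart.

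Ublcp1 (Entrez 79560, chr11:44454571-44470713), whose start lies 1.03 Mb from that of Pttg1, was lowest in the same arrays. It read 7.30, 7.04 and 7.03 in Q111 mice without mGluR5, and 7.78, 7.90 and 8.11 in Q111 mice with mGluR5. The Q20 mice read 8.31, 8.36 and 8.39 where mGluR5 was lost and 8.42, 8.35 and 8.12 where it was kept. The double mutants again lay below all other arrays, by a gap of 0.48 to the nearest, which came from Q111 mice with mGluR5. Unlike Pttg1, Ublcp1 was also somewhat lower in Q111 mice that kept the receptor, although only a gap of 0.01 separated them from Q20 mice with mGluR5. The log2 difference between Q111 and Q20 mice was -1.23 ± 0.11 (SE, 2.34-fold) without mGluR5 and -0.37 ± 0.11 (1.29-fold) with it. Loss of mGluR5 gave -0.80 ± 0.11 (1.75-fold) in Q111 mice and 0.06 ± 0.11 in Q20 mice, and the interaction was -0.86 ± 0.16. The group means were 7.12 ± 0.15 in Q111 mice lacking mGluR5, 7.93 ± 0.17 in Q111 mice that kept it, 8.35 ± 0.04 in Q20 mice lacking it and 8.30 ± 0.16 in Q20 mice that kept it (SD, n = 3 each). The Q20 groups overlapped.

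**Figure D1:**
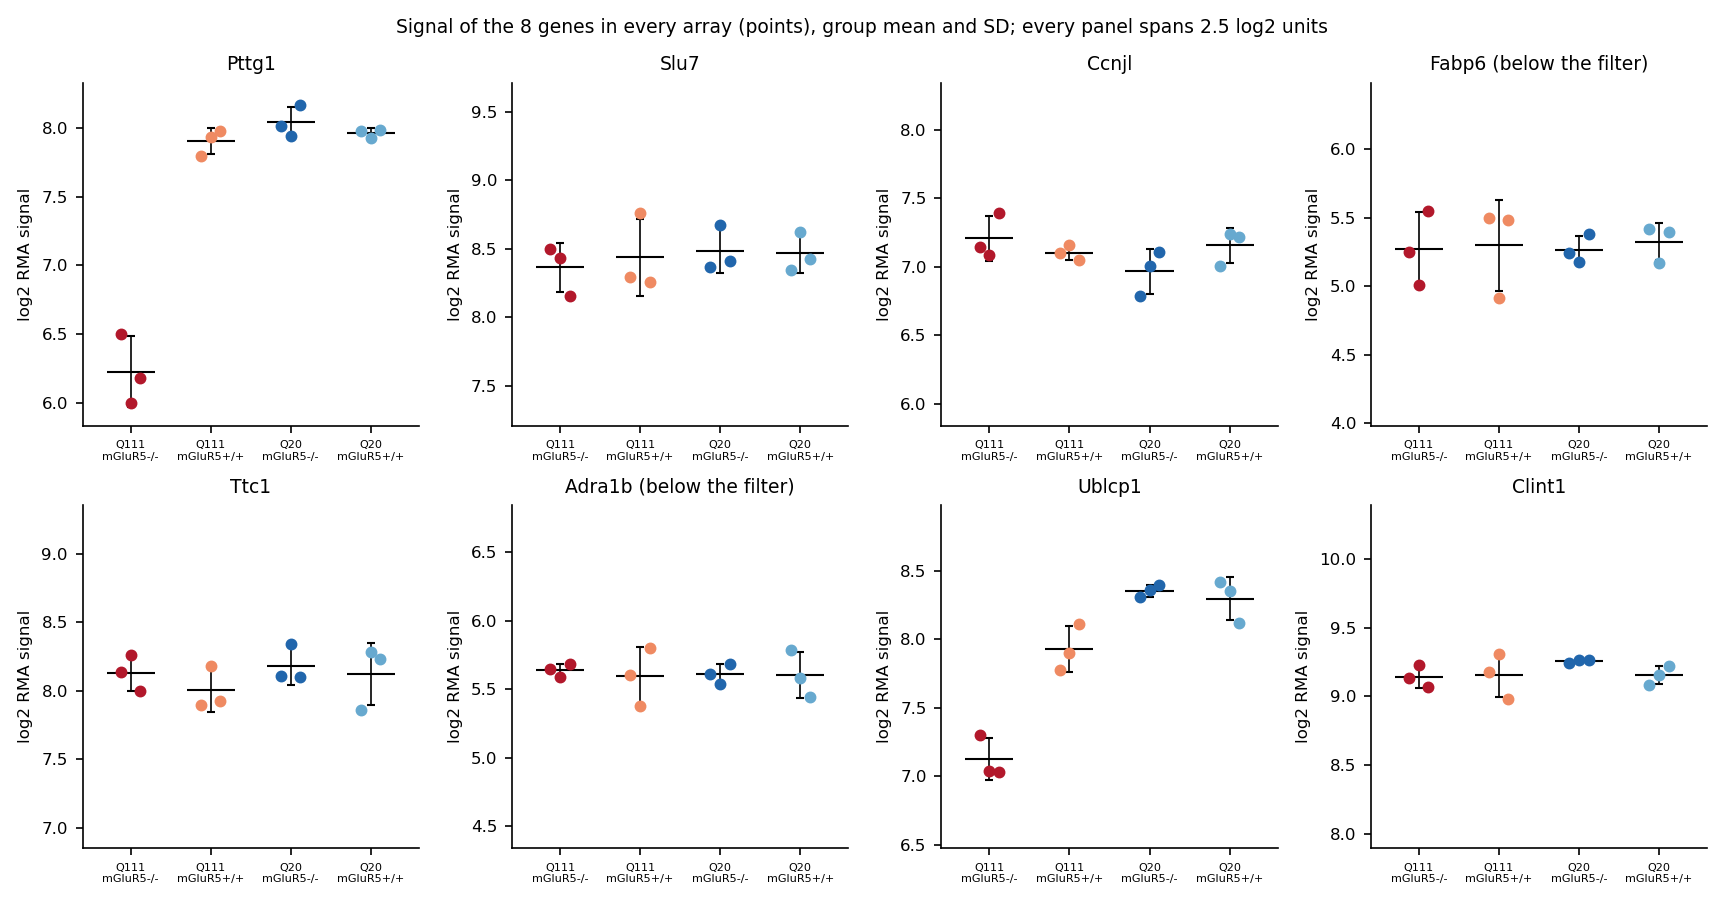
Log2 RMA signal (vertical axis) of the 8 genes in every array of the 4 genotype groups (horizontal axis), with points for arrays, lines for group means and bars for the SD of 3 arrays. In Pttg1 and Ublcp1 the 3 arrays of Q111 mice without mGluR5 lie below all others, while in the remaining 6 panels the double mutants overlap Q111 mice with mGluR5.

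Set against each other, the pair separated the double mutants from the rest in both directions. Over the 12 arrays Pearson's r of Pttg1 and Ublcp1 was 0.945, which rests on the 3 double mutant arrays, and over the other 9 arrays it was 0.640. Among the 4 other tested genes of the interval, r with Pttg1 over 12 arrays was 0.261 for Slu7, 0.209 for Clint1, -0.085 for Ttc1 and -0.409 for Ccnjl. These correlations share the arrays and their normalization and are descriptions without a test.

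**Figure D2:**
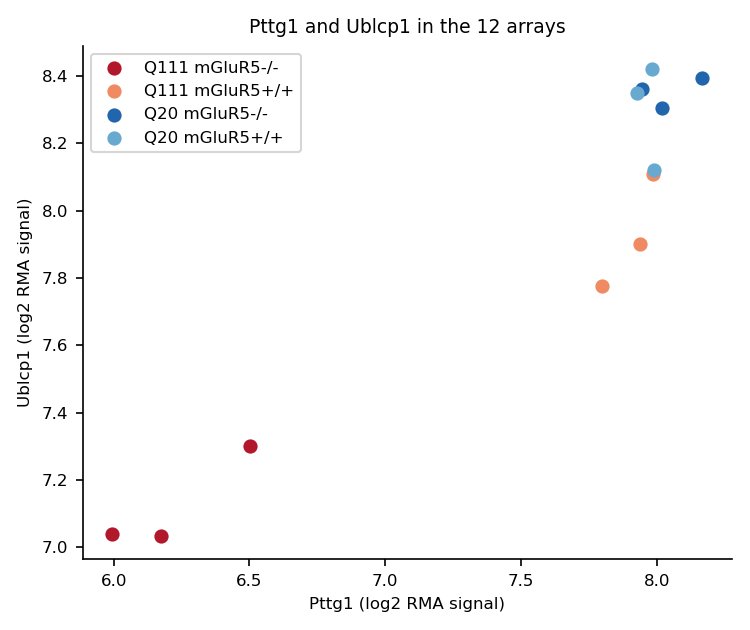
Pttg1 (horizontal axis) against Ublcp1 (vertical axis), both as log2 RMA signals, 1 point for each of the 12 arrays coloured by group. The 3 arrays of Q111 mice without mGluR5 stand apart at the lower left, and the 3 of Q111 mice with mGluR5 lie between them and the Q20 arrays in Ublcp1 but among the Q20 arrays or just below them in Pttg1.

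Promoters of the pair are shown because both genes were low in the same arrays. RefSeq sequences on GRCm38.p6 were at hand for 6 of the 8 genes, each covering 250 bases before a start site and 50 after it. Both windows are given 5′ to 3′ on the minus strand, the strand of the genes, with motif matches on either strand in capitals. The start sites used lie inside the annotated span of each gene. The Ublcp1 window covers the annotated 5′ end of its gene. The Pttg1 window lies within its gene and does not reach the annotated 5′ end, so the sequence there was not searched.
Pttg1, chr11:43425932-43426231: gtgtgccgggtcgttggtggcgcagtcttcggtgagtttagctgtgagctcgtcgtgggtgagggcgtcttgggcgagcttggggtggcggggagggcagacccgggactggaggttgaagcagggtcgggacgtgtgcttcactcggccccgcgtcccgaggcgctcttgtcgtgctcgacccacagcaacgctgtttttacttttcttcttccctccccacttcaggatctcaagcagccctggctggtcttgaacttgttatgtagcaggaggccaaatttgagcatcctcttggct
Ublcp1, chr11:44470499-44470798: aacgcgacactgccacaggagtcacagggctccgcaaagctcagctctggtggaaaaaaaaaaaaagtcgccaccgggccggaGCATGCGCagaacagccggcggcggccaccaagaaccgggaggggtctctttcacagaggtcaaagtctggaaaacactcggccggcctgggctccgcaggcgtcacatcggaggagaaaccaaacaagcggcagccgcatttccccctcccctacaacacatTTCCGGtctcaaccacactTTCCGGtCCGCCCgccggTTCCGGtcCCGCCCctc
6 motifs were searched on both strands, namely the NF-Y box CCAAT, the cell cycle homology region TTTGAA, the GC box GGGCGG, the ETS core CCGGAA, the NRF1 core GCATGCGC and the TATA box TATAAA. None of the 6 occurred in the Pttg1 window, which does not show what lies at the annotated 5′ end of that gene. The Ublcp1 window held 3 ETS cores, 2 GC boxes and 1 NRF1 core, none overlapping. Of all 32851 promoter windows in the table, 14.9% held an ETS core, 35.7% a GC box, 2.71% the NRF1 core, 37.4% an NF-Y box, 17.9% the cell cycle region and 13.6% a TATA box. No motif of the 6 was thus shared by both windows. GC content was 60.3% in the Pttg1 and 62.0% in the Ublcp1 window, against a median of 52.7% over all windows.

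Among the other 4 tested genes of the set, the log2 differences of all 5 comparisons ran from -0.19 to 0.29. Slu7 (Entrez 193116, chr11:43433726-43447982), whose start is 13.5 kb from that of Pttg1, read 8.50, 8.43 and 8.16 in Q111 mice without mGluR5, 8.30, 8.76 and 8.26 in Q111 mice with it, 8.37, 8.67 and 8.41 in Q20 mice without it and 8.35, 8.62 and 8.43 in Q20 mice with it. All groups overlapped, and the 4 simple differences lay between -0.12 ± 0.14 and 0.02 ± 0.14 (SE). Replicate 2 was the highest array in 3 of the 4 groups, the exception being Q111 mice without mGluR5.

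Ccnjl (Entrez 380694, chr11:43528749-43586999) was the one tested gene among the other 4 whose difference between Q111 and Q20 mice without mGluR5 was positive. It read 7.14, 7.08 and 7.39 in Q111 mice without mGluR5, against 6.79, 7.00 and 7.11 in Q20 mice without it. The groups overlapped by 0.02, and the log2 difference was 0.24 ± 0.11 (SE). In mice with mGluR5 it read 7.10, 7.16 and 7.05 in the Q111 group, against 7.01, 7.24 and 7.22 in the Q20 group, a difference of -0.05 ± 0.11.

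Ttc1 (Entrez 66827, chr11:43730006-43748008) read 8.14, 8.26 and 7.99 in Q111 mice without mGluR5, 7.90, 8.18 and 7.93 in Q111 mice with it, 8.11, 8.34 and 8.10 in Q20 mice without it and 7.86, 8.28 and 8.23 in Q20 mice with it. No pair of compared groups was separated, and the simple differences ran from -0.12 ± 0.13 to 0.13 ± 0.13 (SE). Clint1 (Entrez 216705, chr11:45851944-45910625) had the narrowest range of the 8 genes over the 12 arrays, 8.98 to 9.31. It averaged 9.14 ± 0.08 in Q111 mice without mGluR5, 9.16 ± 0.16 in Q111 mice with it, 9.26 ± 0.01 in Q20 mice without it and 9.15 ± 0.07 in Q20 mice with it (SD, n = 3 each). The group of Q20 mice without mGluR5 lay above the double mutants by a gap of 0.02, with a log2 difference of -0.12 ± 0.10 (SE), and above Q20 mice with mGluR5 by a gap of 0.03, with a difference of 0.10 ± 0.10.

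Fabp6 and Adra1b were not told from background. A gene was tested where its signal exceeded the 25th percentile of the array, 5.69 to 5.94, in at least 3 arrays, and both stayed at or under that level in all 12. Fabp6 (Entrez 16204, chr11:43596040-43601562) averaged 5.27 ± 0.27 in Q111 mice without mGluR5, 5.30 ± 0.33 in Q111 mice with it, 5.26 ± 0.10 in Q20 mice without it and 5.33 ± 0.13 in Q20 mice with it (SD, n = 3 each). Its 12 values ran from 4.91 to 5.55. Adra1b (Entrez 11548, chr11:43774605-43901250) averaged 5.64 ± 0.05, 5.60 ± 0.21, 5.61 ± 0.07 and 5.60 ± 0.17 in the same order of groups, with values from 5.38 to 5.80. No fold change is given for either.

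Of the 8 genes 6 passed this filter, among 16721 tested genes in all. A gene was called at a limma adjusted p below 0.05 over all tested genes. In Q111 against Q20 mice without mGluR5, 2 of the 6 were called, both lower, namely Pttg1 and Ublcp1, where 0.885% of all tested genes were called. The median log2 difference of the 6, which include the chosen pair, was -0.12. That of the other 4 was -0.08, against -0.02 over all tested genes. The loss of mGluR5 in Q111 mice again called these 2, with 0.275% of all tested genes called. There the 6 had a median of -0.04 and the other 4 had one of 0.04, against 0.01 over all. In Q111 against Q20 mice with mGluR5 none of the 6 was called by limma, and 0.574% of all tested genes were called. For the loss of mGluR5 in Q20 mice none was called by limma, and 0.299% of all were called. The interaction called the same pair, with 0.437% of all tested genes called. At an unadjusted p under 0.05 there were 3 of the 6 in Q111 against Q20 mice without mGluR5 (the pair and Ccnjl), 2 for the loss of mGluR5 in Q111 mice (the pair), 1 in Q111 against Q20 mice with mGluR5 (Ublcp1), 0 for the loss of mGluR5 in Q20 mice and 2 in the interaction (the pair). Over all tested genes 9.44%, 4.36%, 6.84%, 6.02% and 5.37% were under this level, in the same order of comparisons. Pttg1 and Ublcp1 were chosen on these comparisons, and nothing is read from their calls. The comparisons share arrays, in particular the double mutants, and are not independent of each other.

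The interaction of Ublcp1 kept its sign in every fit with 1 array left out, but its call was lost in most of them. It was not called without any 1 of 8 arrays, namely replicates 2 and 3 of the Q111 mice without mGluR5, replicate 3 of the Q111 mice with it, replicates 1, 2 and 3 of the Q20 mice without it, and replicates 2 and 3 of the Q20 mice with it. Its value lay between -0.95 and -0.77 with 1 array left out. Over all tested genes these fits called 34 to 69 interactions, against 73 in the fit of all arrays.

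Other genes of the neighbourhood were then compared, since the 8 genes do not fill the interval. Of 13 genes with a probe set between Pttg1 and Clint1, 11 were tested, and the 5 that are not among the 8 were C1qtnf2, Pwwp2a, Il12b, Rnf145 and Ebf1. None of these 5 was called by limma in any of the 5 comparisons, where 0.275% to 0.885% of all tested genes were called. In Q111 against Q20 mice without mGluR5, 4 of the 5 were negative and their median was -0.03. An unadjusted p under 0.05 was found for 1 of the 5, against 9.44% of all tested genes. Il12b, a cytokine subunit gene whose start lies 0.98 Mb from that of Pttg1 and so next to Ublcp1, stood at -0.01 ± 0.14 (SE). Rnf145, a ubiquitin ligase gene on the other side of Ublcp1, stood at -0.11 ± 0.10. The most negative value was that of Ebf1, a transcription factor gene, at -0.27 ± 0.12 (limma adjusted p = 0.468), which did not pass. C1qtnf2, a secreted protein gene that follows Slu7, stood at 0.02 ± 0.13, and Pwwp2a, a chromatin reader gene, at -0.03 ± 0.08.

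Outside the interval the 10 tested genes on either side were also compared. Of these 20, 0 were called by limma in any comparison, against 0.275% to 0.885% of all tested genes. In Q111 against Q20 mice without mGluR5, 2 of the 20 had an unadjusted p under 0.05, against 9.44% of all tested genes. Of the 20, 13 were negative and the median was -0.05. They ran from Gabrb2, a GABA-A receptor subunit gene before Pttg1, at -0.30 ± 0.12 (SE), to Nipal4, a magnesium transporter gene, at 0.27 ± 0.11. The smallest limma adjusted p among them was 0.394. The loss of mGluR5 in Q111 mice gave differences from -0.19 ± 0.12 (Gabrb2) to 0.14 ± 0.16 (Havcr2, an immune receptor gene). Here 0 of the 20 had an unadjusted p under 0.05, against 4.36% of all tested genes. Just outside the ends, Atp10b, a lipid flippase gene, stood at 0.14 ± 0.10 without mGluR5 and Lsm11, a gene for histone RNA processing, at -0.05 ± 0.10. Over the whole chromosome, 8 of the 1411 tested genes outside the 8 were called in Q111 against Q20 mice without mGluR5 (0.567%). Of all tested genes 0.885% were called there. The called gene nearest to the interval, looked up after its value was seen, was Insyn2b, an inhibitory synapse protein gene 9.11 Mb before Pttg1. Its log2 difference was -0.61 ± 0.11 (SE) between Q111 and Q20 mice without mGluR5 (limma adjusted p = 0.0130) and -0.80 ± 0.11 for the loss of mGluR5 in Q111 mice (limma adjusted p = 0.00252). The first of these calls was lost without replicate 1 or 3 of the Q111 mice or replicate 1 or 2 of the Q20 mice, both lacking mGluR5, with limma adjusted p-values from 0.0504 to 0.0839.

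**Figure D3:**
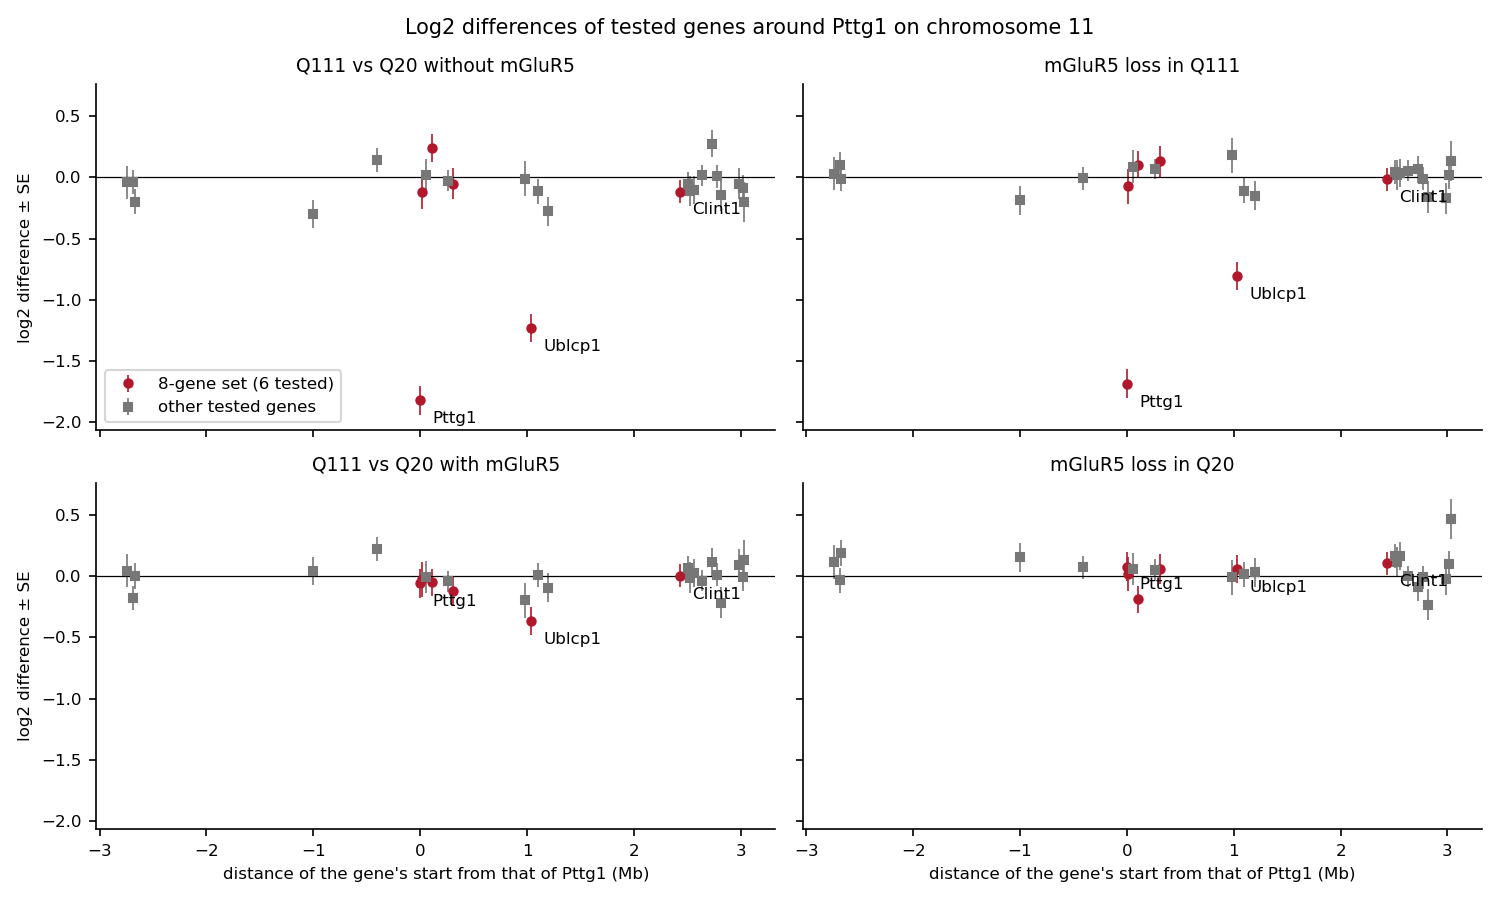
Log2 differences with their SE (vertical axis) of tested genes within 3 Mb before and 4 Mb after the start of Pttg1 on chromosome 11, by distance from it (horizontal axis), in the 4 simple comparisons, each named with the mutant or knockout first. Pttg1 and Ublcp1 stand at -1.82 and -1.23 in Q111 against Q20 mice without mGluR5 and at -1.68 and -0.80 for the loss of mGluR5 in Q111 mice, while the genes between and beside them lie between -0.30 and 0.27 in both.

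The 5 named genes most like Pttg1 over the 12 arrays, by Pearson's r, were Acvrl1 (0.978), Crispld1 (0.964), Ublcp1 (0.945), Ppdpf (0.931) and Impg1 (0.924). They lie on chromosomes 15, 1, 11, 2 and 9. Acvrl1, an endothelial receptor of the transforming growth factor family, averaged 7.33 ± 0.12 in Q111 mice without mGluR5, against 8.48 ± 0.10 in Q111 mice with it, 8.49 ± 0.07 in Q20 mice without it and 8.56 ± 0.05 in Q20 mice with it (SD, n = 3 each). Crispld1, a secreted protein gene, averaged 7.33 ± 0.02 in the double mutants and 7.92 ± 0.05, 7.91 ± 0.08 and 7.91 ± 0.09 in the other groups in the same order. Both thus share with Pttg1 a low level in the double mutants alone. Ppdpf, named after a factor of pancreatic progenitors, averaged 8.27 ± 0.38 in the double mutants and 9.02 ± 0.07, 9.14 ± 0.05 and 8.91 ± 0.03 in the other groups. Impg1, a photoreceptor matrix protein gene, averaged 5.49 ± 0.04 in the double mutants, a level below the filter, and between 6.39 and 6.61 in the other groups. Over the 9 arrays that are not double mutants the r with Pttg1 was 0.336 for Acvrl1, -0.171 for Crispld1, 0.473 for Ppdpf and 0.037 for Impg1, so the likeness over 12 arrays rests on 3 of them.

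The 5 named genes most like Ublcp1 were Cbx7 (0.949), Pttg1 (0.945), Slc6a20a (0.933), Acvrl1 (0.919) and Crispld1 (0.908), after 1 predicted gene that is not named. Cbx7, a Polycomb protein gene on chromosome 15, averaged 8.71 ± 0.14 in Q111 mice without mGluR5, 9.11 ± 0.29 in Q111 mice with it, 9.56 ± 0.06 in Q20 mice without it and 9.58 ± 0.05 in Q20 mice with it (SD, n = 3 each). It followed the order of Ublcp1 with an intermediate level in Q111 mice that have the receptor. Slc6a20a, a transporter of proline and related amino acids on chromosome 9, averaged 8.20 ± 0.04, 8.38 ± 0.08, 8.56 ± 0.04 and 8.56 ± 0.06 in the same order. Over the 9 other arrays r with Ublcp1 was 0.915 for Cbx7 and 0.808 for Slc6a20a, against 0.640 for Pttg1. These genes were picked for their profile, and no test is given.

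**Figure D4:**
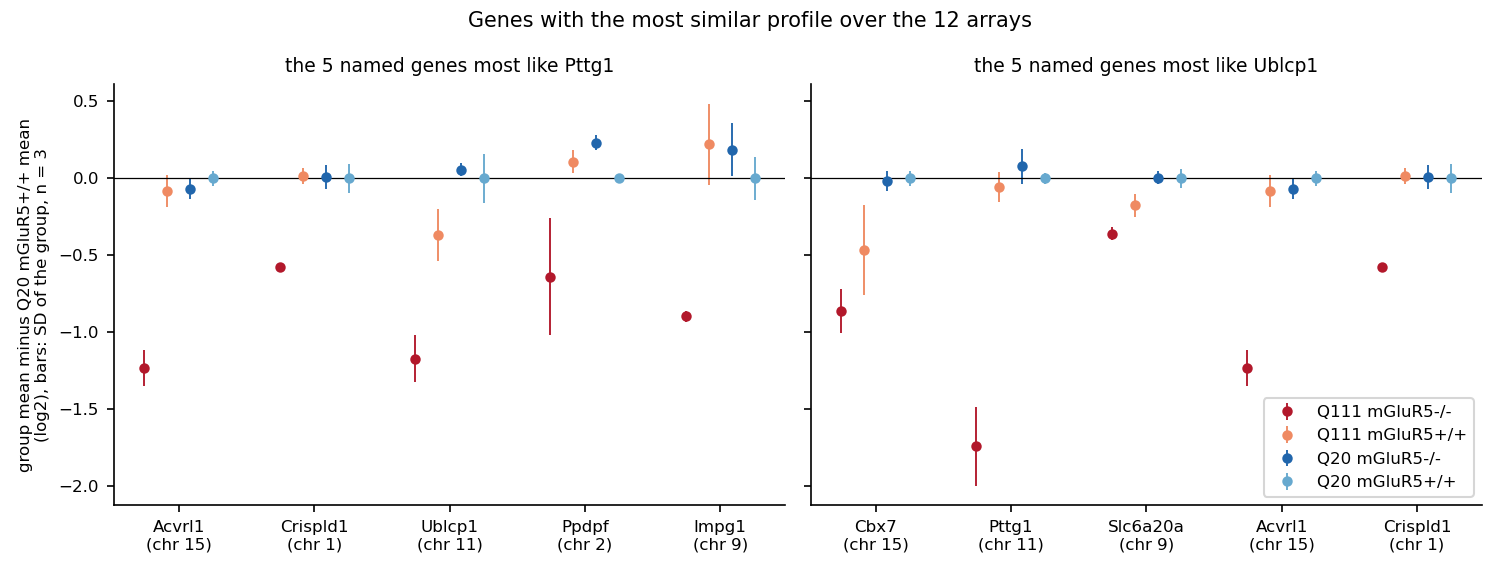
Group mean minus the mean of Q20 mice with mGluR5, in log2 units with the SD of each group of 3 arrays (vertical axis), for the 5 named genes most like Pttg1 (left) and most like Ublcp1 (right). The double mutants lie lowest in every gene, and Q111 mice with mGluR5 lie between them and Q20 mice in Ublcp1, Cbx7 and Slc6a20a.

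Genes that work with the 8 were followed by lists made from textbook roles. Between 0.275% and 0.885% of all tested genes were called per comparison, and calls in the lists are read against these shares. The 9 lists held 124 tested genes, of which 1 was called in any of the 5 comparisons. This was Psmd6, a subunit of the proteasome's regulatory particle, which rose in Q111 against Q20 mice with mGluR5 by a log2 difference of 0.60 ± 0.11 (SE, limma adjusted p = 0.0188). The call was lost without replicate 3 of these Q111 mice (limma adjusted p = 0.0528) and without replicate 1, 2 or 3 of these Q20 mice (0.0969, 0.0722 and 0.0626). Between Q111 and Q20 mice without mGluR5 Psmd6 stood at 0.29 ± 0.11 and did not pass (limma adjusted p = 0.375). In that comparison limma called 0 of the 124, 99 were negative and the median was -0.09, against -0.02 over all tested genes. How many of all tested genes were negative was not counted. An unadjusted p under 0.05 was found for 15 of the 124 (12.1%), near the 1579 of all 16721 tested genes (9.44%), and the counts of single lists at this level are read against that share. The loss of mGluR5 in Q111 mice gave 0 called by limma, 2 with an unadjusted p under 0.05 (1.61%, against 4.36% of all tested genes) and a median of 0.00 to 2 decimals. There 64 of the 124 were negative and 60 positive. For the loss of mGluR5 in Q20 mice 95 were positive, with a median of 0.07, against 0.02 over all tested genes. The Q20 mice without mGluR5, the reference for the 99 negative genes, thus mostly stood above the double controls too.

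For Pttg1 the partners are separase with the cohesin complex, and the anaphase-promoting complex with its checkpoint. Of 15 tested separase and cohesin genes 14 were negative in Q111 against Q20 mice without mGluR5, with a median of -0.17, and limma called 0, with 2 at an unadjusted p under 0.05. Stag2, a cohesin subunit, stood at -0.36 ± 0.15 (SE) and Rad21, the subunit that separase cuts, at -0.22 ± 0.10. Espl1, separase itself, stood at 0.06 ± 0.12. Of 22 genes of the anaphase-promoting complex and checkpoint 17 were negative, with a median of -0.11, 0 called by limma and 4 at an unadjusted p under 0.05. The subunit Anapc13 stood at -0.37 ± 0.13 and the inhibitor Fbxo5 at -0.35 ± 0.12. For the loss of mGluR5 in Q20 mice 12 of the 15 and 17 of the 22 were positive.

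Markers of cycling cells were read because Pttg1 is a gene of dividing cells. Of 15 markers 11 were tested, and limma called 0 in any comparison, against 0.275% to 0.885% of all tested genes. In Q111 against Q20 mice without mGluR5, 7 of the 11 were positive and the median was 0.09. An unadjusted p under 0.05 was found for 0 of the 11, against 9.44% of all tested genes. The list mean was taken over all 14 markers with a probe set, also those that did not pass the filter. It lay between 6.25 and 6.35 on the double mutant arrays, against 6.25 to 6.31 in Q20 mice without mGluR5. The 2 markers with the smallest unadjusted p in this comparison pointed opposite ways, Ccna2 at -0.22 ± 0.12 (SE) and Ccnb2 at 0.18 ± 0.12. Mki67, added after values were seen, lay between 6.38 and 6.63 in the double mutants, against 6.23 to 6.48 in Q20 mice without mGluR5. For the loss of mGluR5 in Q111 mice, where Pttg1 was also low, 7 of the 11 were negative and the median was -0.07. An unadjusted p under 0.05 was found for 1 of the 11, against 4.36% of all tested genes. The list mean was 6.31 in the double mutants, against 6.35 in Q111 mice with mGluR5, with overlapping arrays. The part of these markers in the Pttg1 signal was not tested.

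For Ublcp1 the 17 tested subunits of the proteasome's regulatory particle had a median of -0.09 in Q111 against Q20 mice without mGluR5, with 12 negative, 0 called by limma and 3 at an unadjusted p under 0.05. For Slu7, 16 of 17 genes of the second splicing step and its partners were negative with a median of -0.11, 0 called by limma and 2 at an unadjusted p under 0.05. Among these Eftud2 stood at -0.27 ± 0.09 (SE) and Snrnp200, a helicase, at -0.26 ± 0.10. For the loss of mGluR5 in Q20 mice 12 of these 17 splicing genes were positive. For Clint1, 13 of 19 clathrin genes and adaptors were negative with a median of -0.02, 0 called and 1 at an unadjusted p under 0.05, which was the heavy chain gene Cltc at -0.20 ± 0.08. The adaptor subunit gene Ap1g1 stood at -0.22 ± 0.11.

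For Ccnjl, 7 of 10 cyclins and partners were negative with a median of -0.12, limma called 0, and 0 had an unadjusted p under 0.05. Ccnd3 stood at -0.27 ± 0.14 (SE) and the inhibitor Cdkn1b at -0.29 ± 0.15. For Ttc1, 13 of 14 genes of Hsp90 and its tetratricopeptide partners were negative with a median of -0.07, 0 called by limma and 1 at an unadjusted p under 0.05, which was Hsp90aa1 at -0.24 ± 0.10. Ppid, a partner of Hsp90, stood at -0.23 ± 0.12. For the loss of mGluR5 in Q20 mice 12 of these 14 genes were positive. For Fabp6, 7 of 14 relatives were tested, 4 were negative, the median was 0.00 to 2 decimals, and limma called 0 with 1 at an unadjusted p under 0.05. That gene was Fabp7, the fatty acid binding protein of astrocytes and radial glia, at -0.41 ± 0.12, while Crabp2 stood at -0.10 ± 0.10. For Adra1b, 3 of 10 adrenergic receptor and Gq genes were tested, all 3 were negative with a median of -0.08, and limma called 0 with 1 at an unadjusted p under 0.05. Gnaq, the Gq alpha subunit, stood at -0.27 ± 0.10 and Gna11 at -0.08 ± 0.10.

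**Figure D5:**
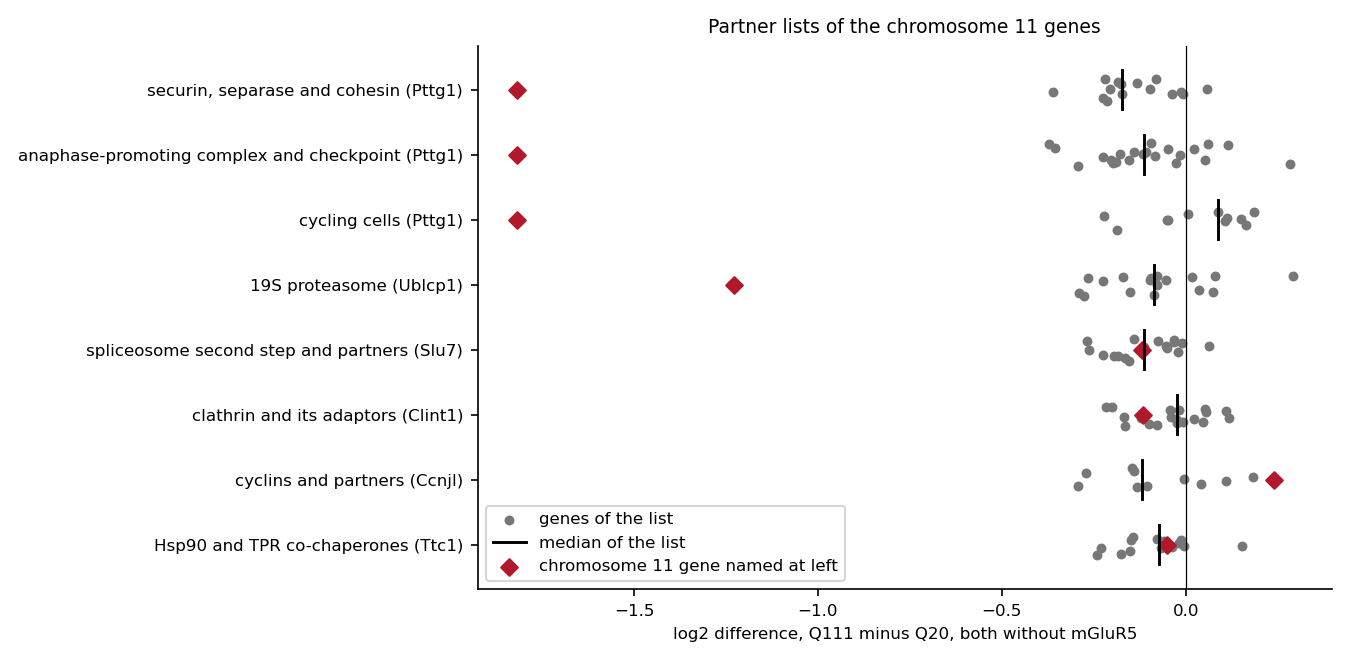
Log2 difference between Q111 and Q20 mice, both without mGluR5 (horizontal axis), of the tested genes of 8 lists (grey points, black line for the list median) and of the chromosome 11 gene that each list belongs to (red diamond). Pttg1 at -1.82 and Ublcp1 at -1.23 lie far to the left of their partners, which stay between -0.37 and 0.29, while Slu7, Clint1 and Ttc1 lie among theirs and Ccnjl lies just above its own.

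Markers of tissue next to the striatum were read beside the same comparison. Limma called 0 of the 42 tested markers of 5 lists in any comparison, where 0.275% to 0.885% of all tested genes were called. In Q111 against Q20 mice without mGluR5, 2 had an unadjusted p under 0.05 (4.76%, against 9.44% of all tested genes). The mean signal of the 8 choroid plexus and ependyma markers lay between 6.76 and 6.83 in the double mutants, against 6.90 to 7.25 in Q20 mice without mGluR5, without overlap. Of these 8 markers 6 were negative and 2 positive, with a median log2 difference of -0.14. The most negative was Ttr, the transthyretin gene, at -1.49 ± 0.52 (SE, limma adjusted p = 0.316). It lay between 6.30 and 7.16 in the double mutants, against 7.25 to 9.28 in Q20 mice without mGluR5. In Q111 mice with mGluR5 the list lay between 6.78 and 7.06 and Ttr between 6.37 and 7.65. The double controls spanned 6.67 to 7.22 for the list and 6.47 to 8.54 for Ttr, overlapping the double mutants in both. Ttr averaged 8.15 in the Q20 receptor knockouts, the highest group, then 7.27 in double controls, 6.84 in Q111 receptor carriers and 6.66 in double mutants. The part of these markers in the levels of Pttg1 and Ublcp1 was not tested. The 7 cortical markers lay between 7.43 and 7.59 in the double mutants, against 7.37 to 7.74 in Q20 mice without mGluR5. The 8 thalamic markers lay between 7.32 and 7.34 in the double mutants, against 7.14 to 7.37 in Q20 mice without mGluR5.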

How the data were processed

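The deposited table holds log2 values. RMA and Partek are named, without versions, in the submitters' processing notes, and no further step is recorded there. The series description names Partek Genomics Suite 6.5 and an ANOVA p with a 1.5-fold change as criteria. Platform annotation gave 1 gene symbol for 21789 of 35556 probe sets. The set with the highest mean over 12 arrays stood for a gene, and the filter kept 16721 of 19938 genes. Positions and promoter sequences came from RefSeq on GRCm38.p6, used for names, order and sequence only, since the build behind the probes is not given in the sources used here.

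A linear model with a mean for every group, run in limma 3.58.1 (R 4.3.3) on all 12 arrays, gave two-sided p-values that were Benjamini-Hochberg adjusted over all tested genes. The residual degrees of freedom were 8 and the prior ones 6.88. The fit was tested on simulated data. Alternatives changed the variance model, the arrays fitted, the normalization, the filter, the probe set rule, or added a block or covariate. Array weights were estimated gene by gene, since the other estimate did not converge. Named genes were drawn from the 8 genes, all tested genes of the interval and 10 on either side, and the 5 most correlated with Pttg1 and with Ublcp1. From the 9 role lists the called genes were named, or otherwise the 2 with the smallest unadjusted p. Of the genes that this rule gives in the 5 marker lists, only Ttr, Ccna2 and Ccnb2 are named. Espl1, Mki67, Drd2, Insyn2b and the genes nearest each end were added after values were seen. The genes and lists were chosen with earlier results of these data known. Plots used matplotlib 3.10.9.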

Additional observations from a re-analysis of the deposited data

Results flagged for a closer look

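Both Pttg1 and Ublcp1 differed in the effect of the Q111 allele between mice without and with mGluR5 by the interaction of the fit. It was -1.76 log2 units for Pttg1 and -0.86 for Ublcp1, which were chosen on comparisons that share the double mutant arrays, so these are descriptions. Among the genes most like them, the interaction was -1.08 for Acvrl1, -0.61 for Crispld1, -1.30 for Impg1 and -0.98 for Ppdpf, all chosen for their likeness over the same arrays. Impg1 lay below the 25th percentile on all 3 double mutant arrays, so its value is set against a group at background level and is no measured size. Only genes whose interaction the fit called are listed here, and the choice of the genes favoured such calls. The interactions of Cbx7 and Slc6a20a, also among the genes most like Ublcp1, were not called. The interaction of Ublcp1 was called in only 4 of 12 fits with 1 array left out and not with an ordinary linear model.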

How the results depend on the processing

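Of 188 values of Pttg1 and Ublcp1 under alternatives, 185 moved by less than 1 SD between replicates, and all 131 of those whose main difference exceeded 0.3 in size kept its sign. Many of these values could not move. A simple difference stays the same when an array of an uncompared group is left out. It also stays the same with the compared groups alone or the replicate block. With 1 probe set per gene the probe set rule changes nothing either. These counts are therefore no measure of robustness. With array weights Pttg1 stood at -1.50 and Ublcp1 at -0.63 for the loss of mGluR5 in Q111 mice, and the interaction of Pttg1 was -1.57. Of 376 values of the other 4 tested genes 374 stayed within 1 SD, with the same limit. With 1 array left out Pttg1 lay between -1.96 and -1.70 and Ublcp1 between -1.32 and -1.18 in Q111 against Q20 mice without mGluR5.

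Counts of called genes over the whole array depended more on the settings. For Q111 against Q20 mice without mGluR5 the count was 148, and 91 with an ordinary linear model, 932 with array weights and 353 with the interquartile range as a covariate. For the loss of mGluR5 in Q111 mice it was 46, and 23, 347 and 150 in the same order. For Q111 against Q20 mice with mGluR5 it was 96, and 35, 977 and 266, and 47 with the compared groups alone. For the loss of mGluR5 in Q20 mice it was 50, and 19, 379 and 213, and 84 with an intensity trend and 76 with quantile normalization. For the interaction it was 73, and 19, 326 and 153, and 165 with the study's criteria. With 1 array left out these counts ranged from 74 to 232, 28 to 52, 44 to 128, 25 to 97 and 34 to 69 in the order of the comparisons. The causes were not tested.

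With the replicate number as a block the counts were 343, 103, 204 and 129 in the 4 simple comparisons. The labels state no shared animal or batch behind the numbers, and pairing was to be assumed only if every same-numbered pair had deviations from the group means correlated over 0.1. This held for 11 of 18 pairs (range -0.14 to 0.57), and 9 of 12 arrays correlated best with their own number. Every pair of replicate 2 lay between 0.34 and 0.57, so a shared structure follows the numbers in part. The main fit has no term for it. In the interaction Ublcp1 was not called with an ordinary linear model, nor was its loss of mGluR5 comparison in Q111 mice, and with array weights it was called in Q111 against Q20 mice with mGluR5. The fit on compared groups alone gives no alternative for the interaction. Outside the 8 genes, Psmd6 was called in 17 of 23 alternatives, and Insyn2b in 18 of 23 for Q111 against Q20 mice without mGluR5 and in 22 of 23 for the loss of mGluR5 in Q111 mice. With array weights the gene Nipal4 was called among the 24 named neighbours in the first of these comparisons and Fam71b in the second, and Wwc1 for the loss of mGluR5 in Q20 mice, while all other alternatives called none of the 24. Of the 124 role list genes at most 4 were called in any alternative, and of the 42 markers at most 4.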
